A study of Mus musculus with 9 samples.

Results

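ATF4 is a transcription factor that cells make when protein synthesis is slowed by amino acid shortage, unfolded protein, haem lack or viral RNA, a program called the integrated stress response. In that program the initiation factor eIF2 is phosphorylated, most translation falls, and the Atf4 message is translated more. ATF4 and its partners then switch on genes that make serine, glycine, asparagine and cysteine, carry amino acids into the cell, load them onto tRNA and feed the mitochondrial folate (one-carbon) pathway, together with genes that end the response. The 38 genes described here were chosen by symbol for these roles, with earlier results of these data known. Their counts set beside shares of all genes are therefore descriptions. Each gene has 1 row among the 23282 gene rows. They are 6 stress transcription factors, 7 feedback and growth-control effectors, 7 genes of amino acid synthesis, 6 one-carbon enzymes, 7 amino acid transporters and 5 tRNA synthetases.

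The values come from RAW264.7 cells, a BALB/c mouse macrophage line that forms osteoclast-like cells under RANKL, used at passage 30 and treated for 4 days. The control libraries are of cells given RANKL alone at 50 ng/mL, a further group received the same RANKL with surface proteins of the bacterium Propionibacterium freudenreichii MJ2 at 10 µg/mL, and the last received heat-killed MJ2 at 10000000 cells/mL. Whether the cells of the heat-killed MJ2 libraries also received RANKL is not stated library by library. Each group has 3 libraries, and the labels do not say whether these came from separate cultures, so the p-values measure only the spread between these libraries, which may be technical.

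Every library was sequenced from the 3′ ends of mRNA, so levels do not grow with transcript length. The deposited log2 values were turned back into adjusted reads (2 to the power of the value, minus 1), and the totals ran from 5930926 to 6503682 per library. A gene was tested when 3 or more of the 6 libraries compared reached 10 adjusted reads, which held for 36 of the 38 members. Vldlr, a lipoprotein receptor, and Pycr1, which makes proline, were not, with at most 5.96 and 14.7 adjusted reads. A gene is called higher or lower where limma gave a Benjamini-Hochberg adjusted p under 0.05 over all genes tested and the fold change was at least 2. Macrophage markers summed to 22048 to 23334 adjusted reads in RANKL alone, 29919 to 30381 with heat-killed MJ2 and 27836 to 31427 with surface proteins. Osteoclast markers summed to 20914 to 33120, 13868 to 16029 and 5262 to 7864 in the same order. Of 11 markers of other cell types, 5 (Cd3e, Krt18, Cdh5 and Alb among them) were at 0 in all 9 libraries and all 11 together summed to 5 to 55 adjusted reads. The osteoclast marker sum thus moved with the groups, and the macrophage marker sum was higher with both treatments than in RANKL alone. With surface proteins, log2 fold changes of the macrophage markers ran from -1.47 to 3.81, 3 of 10 below 0. With heat-killed MJ2, those of the osteoclast markers ran from -1.35 to 0.58, 2 of 9 above 0. The part of these markers in the results below was not tested. In bulk RNA, fewer cells of a type and less RNA per cell cannot be told apart.

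ATF4 acts at a composite DNA element called CARE, whose core is searched here as TGATGNAA on both strands in the 250 bases before each RefSeq start site. A window was at hand for 31 members, in GRCm38.p6, the build that the notes call mm10, and 7 of the 31 (22.6%) held the core, against 3.91% of 27025 genes. The matches are in Nupr1, Chac1, Vldlr, Asns, Pycr1, Aars and Gars. They are shown for 4 of the 5 of these that could be tested, to show the letters found and where they lie. The matched letters are in capitals and the sequences run 5′ to 3′ on the strand of the gene.
Chac1, chr2:119351023-119351082, plus strand: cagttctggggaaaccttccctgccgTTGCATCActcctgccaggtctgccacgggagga
Nupr1, chr7:126625562-126625591, minus strand: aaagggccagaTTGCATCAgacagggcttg
Asns, chr6:7693214-7693243, minus strand: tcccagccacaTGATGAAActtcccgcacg
Gars, chr6:55037945-55038000, plus strand: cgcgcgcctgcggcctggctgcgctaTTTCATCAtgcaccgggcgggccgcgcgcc
The first base of the match lies 193 bases before the RefSeq start in Chac1, 110 in Nupr1, 23 in Asns and 30 in Gars. GENCODE M21 places the stretches of Chac1 and Gars between genes and those of Nupr1 and Asns in an exon of the same gene, whose longer transcripts start further upstream. The related cAMP response element, searched as TGACGTCA, was found in Ppp1r15a alone among the 31 members (3.23%), against 1.77% of all genes, with its first base 12 bases before the start and between genes in GENCODE M21.
Ppp1r15a, chr7:45526269-45526306, minus strand: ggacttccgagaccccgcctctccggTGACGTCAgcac
These letters overlap no CARE core. Such a match describes the sequence and is not evidence of binding.

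Most of the set was higher with surface proteins. Against RANKL alone, 27 of the 36 members tested were higher, 1 (Mthfd1) was lower and 8 did not pass, where 10.2% of the 10874 genes tested were higher and 7.32% lower. The median log2 fold change of the members was 1.81, and that of all genes tested was -0.01. Chac1, Trib3 and Sesn2 reached the filter on low values in all 3 libraries of surface proteins but not of RANKL alone, and without them 24 of 33 were higher, with a median of 1.75. Heat-killed MJ2 gave 8 members higher and none lower by limma, with 14 at an unadjusted p under 0.05 and a fold of at least 2 (7.39% of all genes), where 3.37% of 10814 genes were higher and 0.897% lower. Its median over the members was 0.87, against 0.00 over all genes. Of its 8 calls, 0 remained when any 1 of its own libraries was left out. Without RANKL alone replicate 1 or 3 only 1 remained, and without replicate 2 of RANKL alone 6 did. Both contrasts use the same 3 control libraries. The direct contrast of surface proteins with heat-killed MJ2, which tests the difference between the treatments, had 16 members higher and 1 lower (15 and 1 of 35 without Sesn2, which passed the filter through surface proteins), where 5.08% of 10916 genes were higher and 4.97% lower. Of these 17 calls, 5 remained without heat-killed MJ2 replicate 3, the fewest with 1 library left out.

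**Figure D1:**
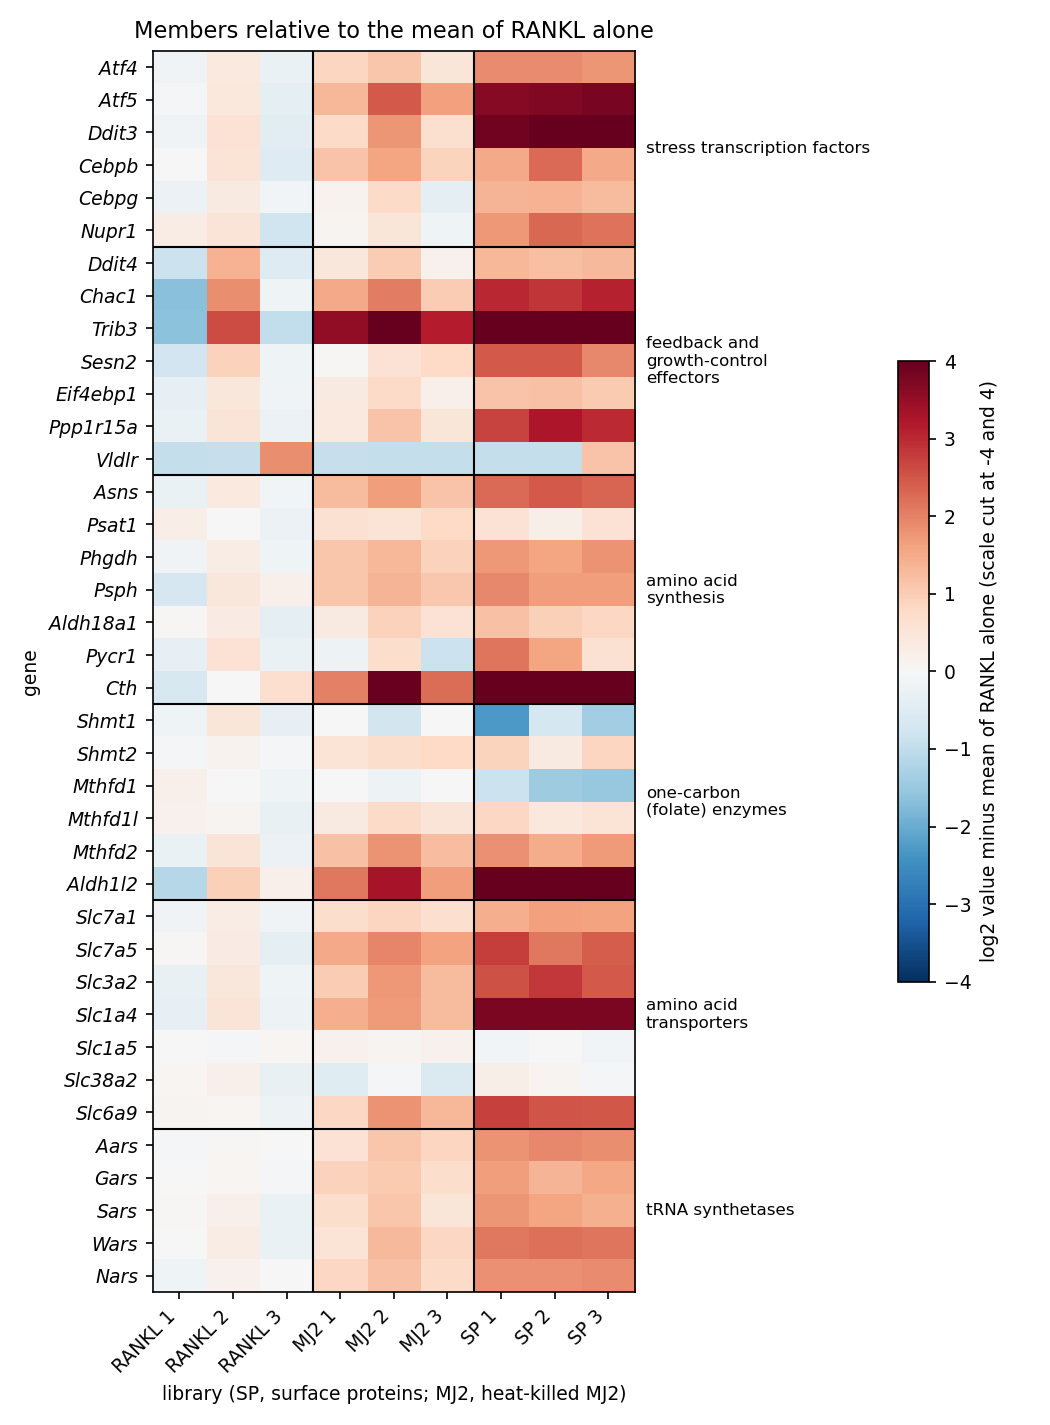
Log2 value of each of the 38 members (rows, by role) in each of the 9 libraries (columns), minus the mean of the 3 libraries of RANKL alone, with the colour scale cut at -4 and 4. Most rows deepen from RANKL alone through heat-killed MJ2 to surface proteins, while Mthfd1 and Shmt1 turn blue with surface proteins and Slc1a5 and Slc38a2 stay pale.

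The libraries of surface proteins lay wholly above those of RANKL alone for 31 of the 38 members and wholly below for 2 (Shmt1 and Mthfd1), against 24.7% and 23.7% of genes tested. Over the 36 tested these were 30 and 2, and without Chac1, Trib3 and Sesn2 they were 27 and 2 of 33. Heat-killed MJ2 lay wholly above RANKL alone for 26 and below for 0 of the 36 tested (25 and 0 of 34 without Chac1 and Trib3), against 15.4% and 14.7%. Surface proteins lay wholly above heat-killed MJ2 for 26 and below for 2 (Mthfd1 and Slc1a5) of the 36 tested (25 and 2 of 35 without Sesn2), against 22.2% and 20.1%. The group means ran in the order RANKL alone, heat-killed MJ2, surface proteins for 31 of the 38 members (81.6%), all 31 among the 36 tested and 28 of 33 without Chac1, Trib3 and Sesn2, against 25% of 11134 genes tested in any comparison. In 19 of the 38 (50%) the 3 groups also did not overlap in that order, all 19 among the 36 tested, against 4.71% of the genes tested. Without Chac1, Trib3 and Sesn2 this held for 18 of 33. The 19 were Atf4, Atf5, Ddit3, Trib3, Asns, Phgdh, Psph, Cth, Aldh1l2, Slc7a1, Slc7a5, Slc3a2, Slc1a4, Slc6a9 and the 5 tRNA synthetases.

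Among the transcription factors, 6 of 6 were higher with surface proteins (10.2% of all genes) and 1 (Atf5) with heat-killed MJ2 (3.37%). In the direct contrast, 5 were higher with surface proteins than with heat-killed MJ2 (5.08%). Atf4 itself stood at 2348, 3396 and 2128 adjusted reads in RANKL alone, 4665, 5598 and 3600 with heat-killed MJ2 and 9640, 9461 and 8749 with surface proteins. The 3 groups did not overlap. Against RANKL alone it was at 1.85 (SE 0.21, adjusted p = 0.00223) on the log2 scale for surface proteins, and 0.82 (SE 0.25, adjusted p = 0.116) with heat-killed MJ2, which did not pass in limma. Between the treatments it was 1.03 (SE 0.19, adjusted p = 0.0209), a call lost without heat-killed MJ2 replicate 1 or 3 or surface proteins replicate 2 or 3.

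Ddit3 encodes CHOP, a partner and target of ATF4 linked to cell death under lasting stress. It held 371, 620 and 304 adjusted reads in RANKL alone, 710, 1411 and 643 with heat-killed MJ2 and 5975, 6746 and 6921 with surface proteins, so the libraries of surface proteins stood far above the other 6. By limma the log2 fold change was 3.98 (SE 0.28, adjusted p = 0.00052) with surface proteins, or 15.8-fold, and 2.92 (SE 0.31, adjusted p = 0.00666) against heat-killed MJ2. The last 500 bases of Ddit3 overlap those of Mars on the opposite strand, and the use of strand in counting is not given in the sources used here, so the split of reads between the 2 genes is uncertain.

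Atf5, a related factor also translated under stress and tied to the mitochondrial stress response, went from 120, 169 and 95.9 adjusted reads to 315, 684 and 391 with heat-killed MJ2 and 1575, 1634 and 1759 with surface proteins. All 3 groups were apart. By limma it was at 3.72 (SE 0.23, adjusted p = 0.00037) on the log2 scale for surface proteins and 1.80 (SE 0.35, adjusted p = 0.0385) for heat-killed MJ2. The second call was lost when any of the 6 libraries was left out, and the difference between treatments, 1.91 (SE 0.29, adjusted p = 0.0137), was lost without heat-killed MJ2 replicate 3.

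Nupr1, a small stress-induced chromatin protein, had 337, 389 and 159 adjusted reads in RANKL alone, 298, 383 and 242 with heat-killed MJ2 and 923, 1354 and 1241 with surface proteins. Heat-killed MJ2 overlapped the control here, and surface proteins stood above both, with log2 fold changes of 2.07 (SE 0.37, adjusted p = 0.00959) against RANKL alone and 1.93 (SE 0.23, adjusted p = 0.00865) against heat-killed MJ2 by limma. Cebpg, a dimer partner of ATF4, showed the same arrangement at 281, 423 and 307, then 367, 562 and 258, then 858, 876 and 805 adjusted reads. Its log2 fold change was 1.35 (SE 0.19, adjusted p = 0.00461) with surface proteins by limma, and 1.17 (SE 0.28, adjusted p = 0.039) against heat-killed MJ2, a call kept in limma only when heat-killed MJ2 replicate 2 was the library left out. Cebpb, a C/EBP factor of macrophage activation as well as of stress, held 366, 540 and 256, 813, 1121 and 690 and 1069, 1765 and 1050 adjusted reads in the 3 groups. Both treatments lay above the control and overlapped each other, with log2 fold changes by limma of 1.76 (SE 0.34, adjusted p = 0.0125) for surface proteins and 1.21 (SE 0.32, adjusted p = 0.0859) for heat-killed MJ2.

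The effectors that feed back on the response or slow growth were higher in 5 of the 6 tested with surface proteins (2 of 3 without Chac1, Trib3 and Sesn2), in 0 with heat-killed MJ2 by limma (1, Trib3, at an unadjusted p with a fold of at least 2), and in 4 when the treatments were compared (3 of 5 without Sesn2). Shares of all genes called higher were 10.2%, 3.37% and 5.08% in the same order. Trib3, a pseudokinase that restrains ATF4, had the largest log2 fold change of the members. Its adjusted reads were 2.72, 70.2 and 4.93 in RANKL alone, 135, 452 and 102 with heat-killed MJ2 and 1539, 1809 and 1574 with surface proteins. RANKL alone replicate 2 stood far above the other control libraries, yet below every treated one. The log2 fold change by limma was 7.14 (SE 1.06, adjusted p = 0.0055) for surface proteins, between 6.32 and 8.45 with 1 library left out, the highest value being that without RANKL alone replicate 2. For heat-killed MJ2 it was 3.99 (SE 1.18, adjusted p = 0.111), which did not pass by limma. Among the fits with 1 library left out, it passed only without RANKL alone replicate 2. Against heat-killed MJ2, surface proteins gave 3.15 (SE 0.54, adjusted p = 0.017), lost without heat-killed MJ2 replicate 1 or 3 or surface proteins replicate 2.

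Ppp1r15a encodes GADD34, the phosphatase subunit that reverses eIF2 phosphorylation. It had 161, 280 and 166 adjusted reads in RANKL alone, 255, 431 and 271 with heat-killed MJ2 and 1265, 1855 and 1536 with surface proteins. Only surface proteins stood clear of the control libraries, at a log2 fold change of 2.96 (SE 0.27, adjusted p = 0.00124) by limma, and of 2.30 (SE 0.26, adjusted p = 0.00726) against heat-killed MJ2, and both calls held without any single library. Its last bases overlap Tulp2 on the opposite strand.

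Chac1, which degrades glutathione, had 7.4, 98.1 and 22.7 adjusted reads in RANKL alone, 75.7, 111 and 53.9 with heat-killed MJ2 and 217, 197 and 228 with surface proteins. The high control library, replicate 2, overlapped the heat-killed MJ2 range. By limma the log2 fold change with surface proteins was 2.99 (SE 0.83, adjusted p = 0.0401), a call that held only when RANKL alone replicate 2 was the library left out, and 1.46 (SE 0.27, adjusted p = 0.0202) against heat-killed MJ2, lost without heat-killed MJ2 replicate 1 or 3 or surface proteins replicate 2 or 3. Sesn2, a leucine sensor that restrains mTORC1, was low throughout, at 3.67, 14.1 and 5.92 adjusted reads in RANKL alone, 7.19, 10.6 and 12.7 with heat-killed MJ2 and 42.1, 42.4 and 28.4 with surface proteins. Its log2 fold changes by limma were 2.27 (SE 0.44, adjusted p = 0.0127) and, against heat-killed MJ2, 1.80 (SE 0.26, adjusted p = 0.0122). Chac1 and Trib3 passed the filter on low values through the treated libraries in both contrasts with RANKL alone, and Sesn2 through surface proteins against either other group, so their calls there are given as descriptions.

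Eif4ebp1, which blocks cap-dependent translation when mTORC1 is off, held 770, 1332 and 870 adjusted reads in RANKL alone, 1235, 1650 and 1123 with heat-killed MJ2 and 2116, 2161 and 1987 with surface proteins. The log2 fold change with surface proteins was 1.12 (SE 0.23, adjusted p = 0.0155) by limma and was lost without RANKL alone replicate 1 or surface proteins replicate 2. Ddit4 (REDD1), another mTORC1 inhibitor, did not pass at 1.28 (SE 0.57, adjusted p = 0.141). Its surface protein libraries lay close together at 193, 177 and 189 adjusted reads, while RANKL alone had 41.2, 199 and 53.4, and it passed when RANKL alone replicate 2 was left out.

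**Figure D2:**
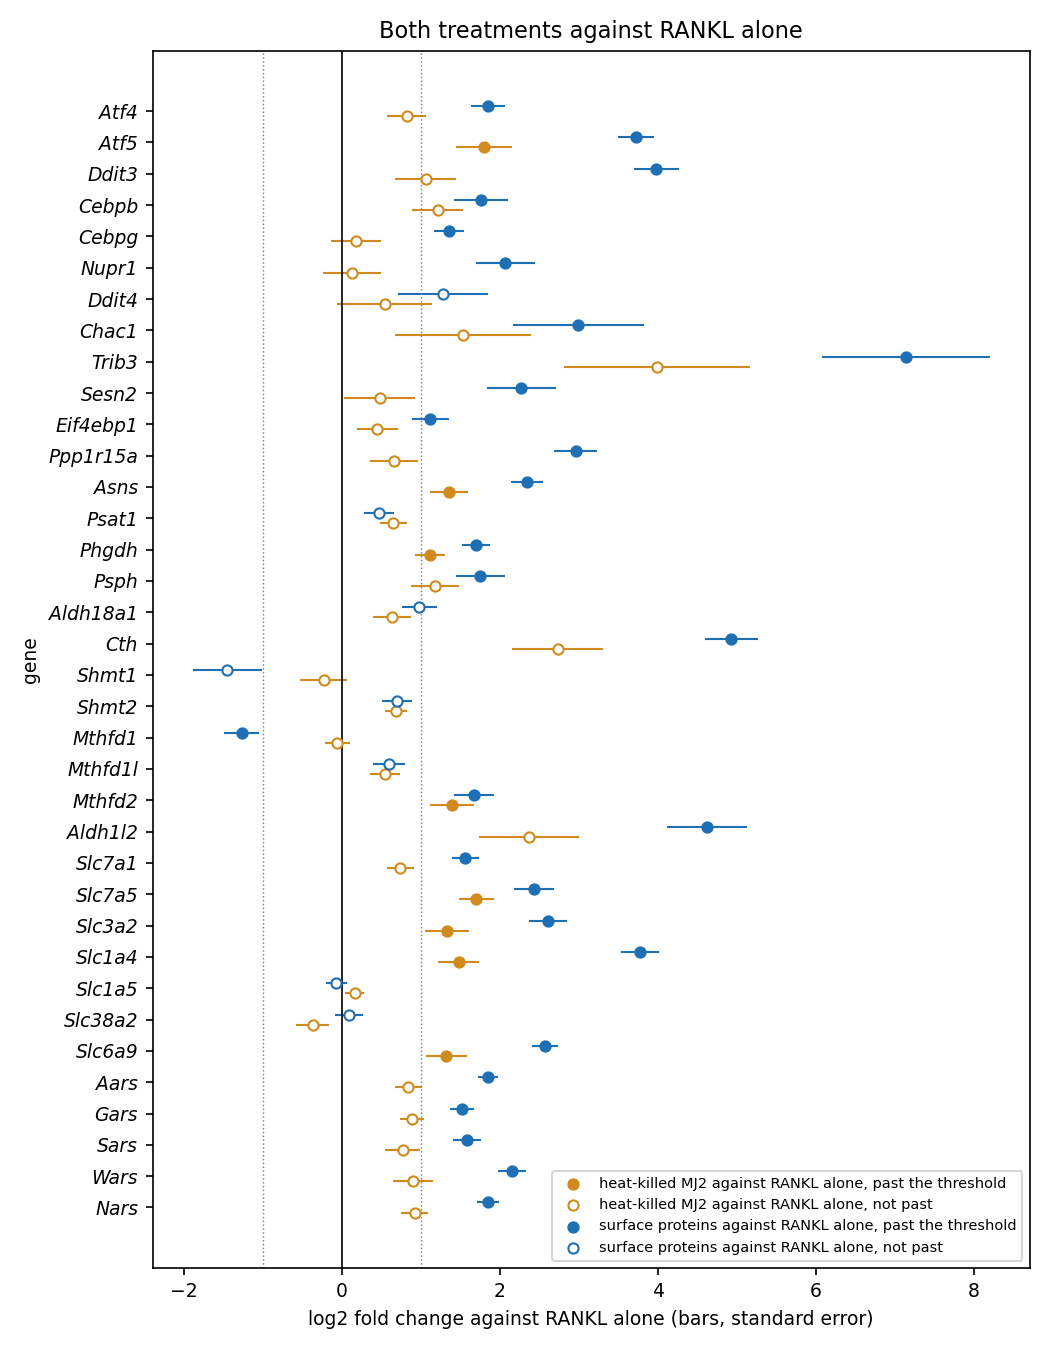
Log2 fold change against RANKL alone (horizontal axis, with the standard error as bars) of the 36 members tested, for surface proteins (blue) and heat-killed MJ2 (orange). Filled points passed the threshold, dotted lines mark a fold of 2, and the blue points lie to the right of the orange ones for most members, with Trib3 farthest right at 7.14.

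In amino acid synthesis, 4 of the 6 genes tested were higher with surface proteins (10.2% of all genes) and 2 with heat-killed MJ2 (3.37%). Between the treatments, 1 (Cth) was higher (5.08%). Asns, the asparagine synthetase, rose from 259, 409 and 288 adjusted reads to 741, 998 and 684 with heat-killed MJ2 and 1491, 1697 and 1562 with surface proteins. The log2 fold change was 2.34 (SE 0.20, adjusted p = 0.00107) with surface proteins and 1.35 (SE 0.24, adjusted p = 0.0304) with heat-killed MJ2 by limma, and the second call held only without RANKL alone replicate 2. The difference between the treatments was 0.99 (SE 0.18, adjusted p = 0.0202), just under a fold of 2, and passed without heat-killed MJ2 replicate 2 or surface proteins replicate 1.

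Serine is made from a glycolytic intermediate by Phgdh, Psat1 and Psph in turn. Phgdh, the first step, had 226, 310 and 225 adjusted reads in RANKL alone, 544, 635 and 476 with heat-killed MJ2 and 837, 751 and 868 with surface proteins, with log2 fold changes by limma of 1.70 (SE 0.18, adjusted p = 0.00197) for surface proteins and 1.12 (SE 0.19, adjusted p = 0.0288) for heat-killed MJ2. The heat-killed MJ2 call again held only without RANKL alone replicate 2. Psph, the last step, had 95.5, 209 and 178, 331, 392 and 322 and 575, 489 and 486 adjusted reads in the same order of groups, and was called for surface proteins at 1.75 (SE 0.31, adjusted p = 0.00922) but not for heat-killed MJ2 at 1.18 (SE 0.30, adjusted p = 0.0831). Psat1, the middle step, was not called for surface proteins, where both its neighbours were. Its level in RANKL alone was already 1218, 993 and 859 adjusted reads, the treated libraries ran from 1201 to 1742, and neither surface proteins at 0.47 (SE 0.19, adjusted p = 0.112) nor heat-killed MJ2 at 0.65 (SE 0.17, adjusted p = 0.0905) passed in limma.

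Cth, which makes cysteine by transsulfuration, changed most in this group. It held 14.9, 23.8 and 38.5 adjusted reads in RANKL alone, 99.3, 382 and 118 with heat-killed MJ2 and 672, 809 and 818 with surface proteins. With surface proteins it was 30.6-fold higher, at a log2 fold change of 4.93 (SE 0.33, adjusted p = 0.00048) by limma, and this call held without any single library. With heat-killed MJ2 the value was 2.73 (SE 0.58, adjusted p = 0.0506), on the other side of the threshold although the groups did not overlap, and the difference between the treatments, 2.20 (SE 0.50, adjusted p = 0.0327), was lost without any 1 of the 6 libraries other than heat-killed MJ2 replicate 2. Aldh18a1, an early step of proline synthesis, was at 0.98 (SE 0.22, adjusted p = 0.0194) with surface proteins, just under a fold of 2, and passed without RANKL alone replicate 2 or surface proteins replicate 3.

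The one-carbon enzymes did not move as a block. With surface proteins 2 of 6 were higher (Mthfd2 and Aldh1l2), 1 was lower (Mthfd1) and 3 did not pass. Of all genes tested, 10.2% were higher and 7.32% lower. The mitochondrial arm, in which Shmt2 splits serine and Mthfd2, Mthfd1l and Aldh1l2 carry the carbon on, and the cytosolic arm of Shmt1 and Mthfd1 had log2 fold changes of opposite sign. Mthfd2 had 825, 1424 and 855 adjusted reads in RANKL alone, 2254, 3465 and 2332 with heat-killed MJ2 and 3562, 2801 and 3260 with surface proteins. Both treatments were above the control and overlapped each other, with log2 fold changes by limma of 1.67 (SE 0.25, adjusted p = 0.00561) and 1.39 (SE 0.28, adjusted p = 0.0436), the second held only without RANKL alone replicate 2. Aldh1l2, which oxidises formyl-folate in mitochondria, rose from 18.6, 83.2 and 48.4 adjusted reads to 188, 427 and 137 with heat-killed MJ2 and 1161, 1098 and 952 with surface proteins. It was 24.6-fold higher with surface proteins, at 4.62 (SE 0.51, adjusted p = 0.00215) on the log2 scale by limma. With heat-killed MJ2 it reached 2.37 (SE 0.63, adjusted p = 0.0897), which did not pass, and the difference between the treatments was 2.25 (SE 0.41, adjusted p = 0.0197), lost without heat-killed MJ2 replicate 1 or 3 or surface proteins replicate 2.

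Mthfd1, the cytosolic enzyme with 3 activities, had 342, 294 and 266 adjusted reads in RANKL alone, 298, 258 and 306 with heat-killed MJ2 and 164, 110 and 104 with surface proteins. Surface proteins lay below both other groups, which overlapped. Its log2 fold change was -1.27 (SE 0.22, adjusted p = 0.00911) against RANKL alone by limma, and -1.21 (SE 0.21, adjusted p = 0.0176) against heat-killed MJ2, lost without heat-killed MJ2 replicate 1 or 3 or surface proteins replicate 2 or 3. Shmt1 had a similar value with surface proteins, -1.45 (SE 0.44, adjusted p = 0.0504), and missed the adjusted p. It passed without surface proteins replicate 2, and the libraries of surface proteins spread widely at 22.5, 70.1 and 42.9 adjusted reads. Shmt2 at 0.70 (SE 0.19, adjusted p = 0.0374) and Mthfd1l at 0.60 (SE 0.20, adjusted p = 0.0644) with surface proteins were under a fold of 2, and heat-killed MJ2 gave 0.68 (SE 0.14, adjusted p = 0.0467) and 0.55 (SE 0.19, adjusted p = 0.159).

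Ratios between the arms were also taken within each library, as a description, since they are built from the same genes. In such a ratio a constant factor of the library drops out but a scaling by rank would not. The log2 ratio of Mthfd2 to Mthfd1 was 1.27, 2.27 and 1.68 in RANKL alone, 2.92, 3.74 and 2.93 with heat-killed MJ2, and 4.43, 4.65 and 4.95 with surface proteins. The 3 groups did not overlap, with means of 1.74 ± 0.50, 3.19 ± 0.47 and 4.68 ± 0.26 (SD, n = 3), and for surface proteins against RANKL alone this follows from the separate values of Mthfd2 and Mthfd1. The log2 ratio of Shmt2 to Shmt1 was 3.29 ± 0.31, 4.20 ± 0.46 and 5.45 ± 1.07 (SD, n = 3). Surface proteins and heat-killed MJ2 overlapped in it, and each treatment was above RANKL alone in every library. The last bases of Aldh1l2, Shmt2 and Shmt1 each overlap a gene on the opposite strand.

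**Figure D3:**
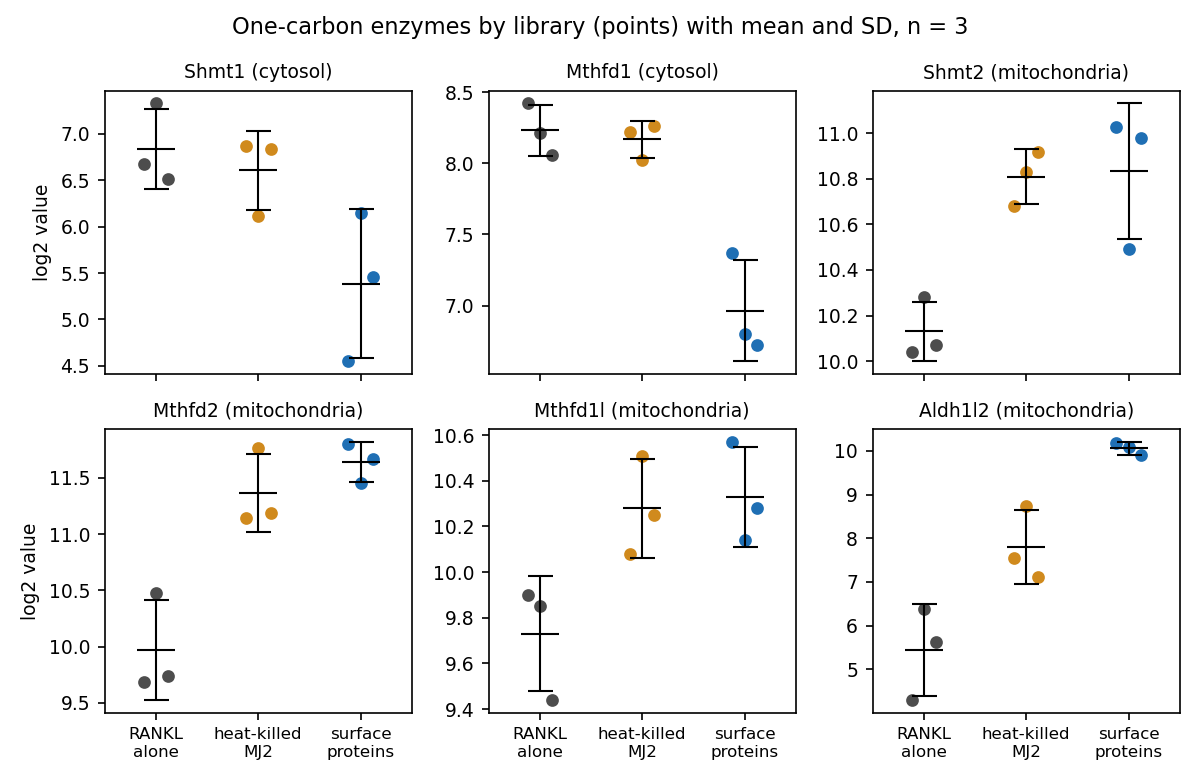
Log2 value of 6 one-carbon enzymes by library (points, coloured by group), with the mean and SD (n = 3) as bars, each panel on its own vertical scale that does not start at 0. The 2 cytosolic enzymes have their lowest mean with surface proteins, where Mthfd1 is at 104 to 164 adjusted reads, and the 4 mitochondrial ones sit lowest in RANKL alone.

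Of the 7 amino acid transporters, 5 were higher with surface proteins, 4 with heat-killed MJ2 and 3 between the treatments. The shares of all genes were 10.2%, 3.37% and 5.08%. Slc3a2 and Slc7a5 are the heavy and light chains of the LAT1 exchanger for large neutral amino acids. Slc3a2, which also pairs with the cystine transporter, had 901, 1515 and 978 adjusted reads in RANKL alone, 2217, 3668 and 2622 with heat-killed MJ2 and 6462, 7781 and 6084 with surface proteins. Slc7a5 had 178, 216 and 134, 494, 674 and 535 and 1178, 745 and 926. In both genes the 3 groups did not overlap. With surface proteins the log2 fold changes by limma were 2.61 (SE 0.24, adjusted p = 0.00123) and 2.43 (SE 0.25, adjusted p = 0.00184), and with heat-killed MJ2 1.33 (SE 0.28, adjusted p = 0.047) and 1.70 (SE 0.22, adjusted p = 0.0132). For heat-killed MJ2, Slc7a5 lost the call without any 1 of the treated libraries, and Slc3a2 kept it only without RANKL alone replicate 2. Between the treatments, Slc3a2 passed at 1.28 (SE 0.22, adjusted p = 0.0177), lost without heat-killed MJ2 replicate 1 or 3 or surface proteins replicate 2, and Slc7a5 did not at 0.73 (SE 0.22, adjusted p = 0.067).

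Slc1a4, which carries serine, alanine and cysteine, had the largest log2 fold change with surface proteins of the 7 transporters, from 18.6, 34.6 and 20.7 adjusted reads to 66.5, 80.2 and 58.8 with heat-killed MJ2 and 339, 339 and 337 with surface proteins. The libraries of surface proteins lay very close together. Its log2 fold changes by limma were 3.77 (SE 0.24, adjusted p = 0.00043) for surface proteins, 1.48 (SE 0.26, adjusted p = 0.0309) for heat-killed MJ2 and 2.30 (SE 0.16, adjusted p = 0.00363) between them, and the first and last held without any single library, while the heat-killed MJ2 call held only without RANKL alone replicate 2. Slc6a9, the glycine transporter GlyT1, had 72.1, 71.3 and 57.3 adjusted reads in RANKL alone, 120, 234 and 170 with heat-killed MJ2 and 450, 381 and 373 with surface proteins. It gave 2.57 (SE 0.16, adjusted p = 0.0004) and, with heat-killed MJ2, 1.32 (SE 0.26, adjusted p = 0.0418) by limma, the second lost when any library was left out, and 1.25 (SE 0.26, adjusted p = 0.0262) between the treatments, held only without heat-killed MJ2 replicate 2.

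Slc7a1, which carries arginine and lysine, had 652, 887 and 661 adjusted reads in RANKL alone, 1182, 1302 and 1152 with heat-killed MJ2 and 1987, 2253 and 2215 with surface proteins. All groups were apart, and surface proteins passed at 1.56 (SE 0.17, adjusted p = 0.00222) in limma while heat-killed MJ2, at 0.74 (SE 0.17, adjusted p = 0.0614), did not. The glutamine carriers Slc1a5 and Slc38a2 stood out from the rest of the group. Slc1a5 had 1424 to 1738 adjusted reads over the 9 libraries, with a log2 fold change of -0.07 (SE 0.13, adjusted p = 0.703) for surface proteins. Slc38a2, with the highest mean of the transporters in RANKL alone and with heat-killed MJ2, at 4104 to 7185 adjusted reads, gave 0.09 (SE 0.18, adjusted p = 0.753) for surface proteins and -0.37 (SE 0.21, adjusted p = 0.356) for heat-killed MJ2 by limma, and its small value for surface proteins turned negative without RANKL alone replicate 3. The last bases of Slc7a5 and Slc6a9 overlap a gene on the opposite strand.

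The tRNA synthetases load amino acids onto tRNA, and each of the 5 members was higher with surface proteins, 0 with heat-killed MJ2 by limma (Aars, Gars and Nars had an adjusted p under 0.05 and all 5 an unadjusted one, each under a fold of 2) and 2 between the treatments. Over all genes, 10.2%, 3.37% and 5.08% were called higher in these comparisons. In each of the 5 members the 3 groups did not overlap. Aars (alanine) had 424, 455 and 443 adjusted reads in RANKL alone, 652, 956 and 791 with heat-killed MJ2 and 1515, 1671 and 1601 with surface proteins. Wars (tryptophan), which interferon also induces, had 195, 244 and 165, 294, 494 and 357 and 866, 908 and 884 in the same order. These were the ones that passed between the treatments, at 1.01 (SE 0.18, adjusted p = 0.0175) and 1.25 (SE 0.21, adjusted p = 0.0165) by limma, and both were lost without heat-killed MJ2 replicate 1 or 3 or surface proteins replicate 2, and Aars also without surface proteins replicate 3. Against RANKL alone they were at 1.85 (SE 0.13, adjusted p = 0.00052) and 2.15 (SE 0.18, adjusted p = 0.00091). The last bases of Aars overlap Exosc6 on the same strand, so its count is uncertain.

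Gars (glycine) stood at 863, 913 and 809 adjusted reads in RANKL alone, 1616, 1786 and 1408 with heat-killed MJ2 and 2777, 2194 and 2496 with surface proteins. Sars (serine) was at 1930, 2156 and 1541, 3008, 4022 and 2613 and 6246, 5563 and 4969, and Nars (asparagine) at 1139, 1439 and 1276, 2286, 2883 and 2161 and 4588, 4572 and 4717. All were more abundant than Aars and Wars in every group, on this scale that does not grow with length. Surface proteins gave log2 fold changes by limma of 1.52 (SE 0.15, adjusted p = 0.00158), 1.58 (SE 0.18, adjusted p = 0.00253) and 1.85 (SE 0.14, adjusted p = 0.0008). With heat-killed MJ2 the 5 synthetases lay between 0.77 and 0.92 on the log2 scale, each under a fold of 2.

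Control and heat-killed MJ2 libraries were not even among themselves. RANKL alone replicate 2 was the highest of its 3 libraries for 30 of the 36 members (83.3%), against 34.2% of 11134 genes, and heat-killed MJ2 replicate 2 was the highest of its own for 30 of 36 (83.3%), against 38% of genes. Their median deviations from the group mean were 0.37 and 0.32 on the log2 scale over the members, against 0.00 and 0.01 over all genes. With surface proteins, replicate 2 was highest for 15 of 36 (41.7%). Of 20 further ATF4 targets, replicate 2 was highest for 17 in RANKL alone and for 16 with heat-killed MJ2. For 18 other cytosolic tRNA synthetases the counts were 13 and 6, and for 14 genes of eIF2 and its kinases 8 and 7. For 15 genes of amino acid sensing they were 5 and 9, and for 19 endoplasmic reticulum chaperones 6 and 7. Of 9 osteoclast markers, replicate 2 was highest for 0 and 1, with RANKL alone replicate 3 highest for all 9. The labels name no batch. With replicate 2 of every group left out, a setting chosen after this was seen, limma called 26 members for surface proteins against RANKL alone, 17 between the treatments and 0 for heat-killed MJ2, where 14 had an unadjusted p under 0.05 and a fold of at least 2. With a single library left out, the counts ran from 26 to 30, from 5 to 19 and from 0 to 7. The lowest count between the treatments came without heat-killed MJ2 replicate 3, and the count for heat-killed MJ2 was 0 without any 1 of its own libraries (unadjusted 13 to 15) and 1 without RANKL alone replicate 1 or 3.

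**Figure D4:**
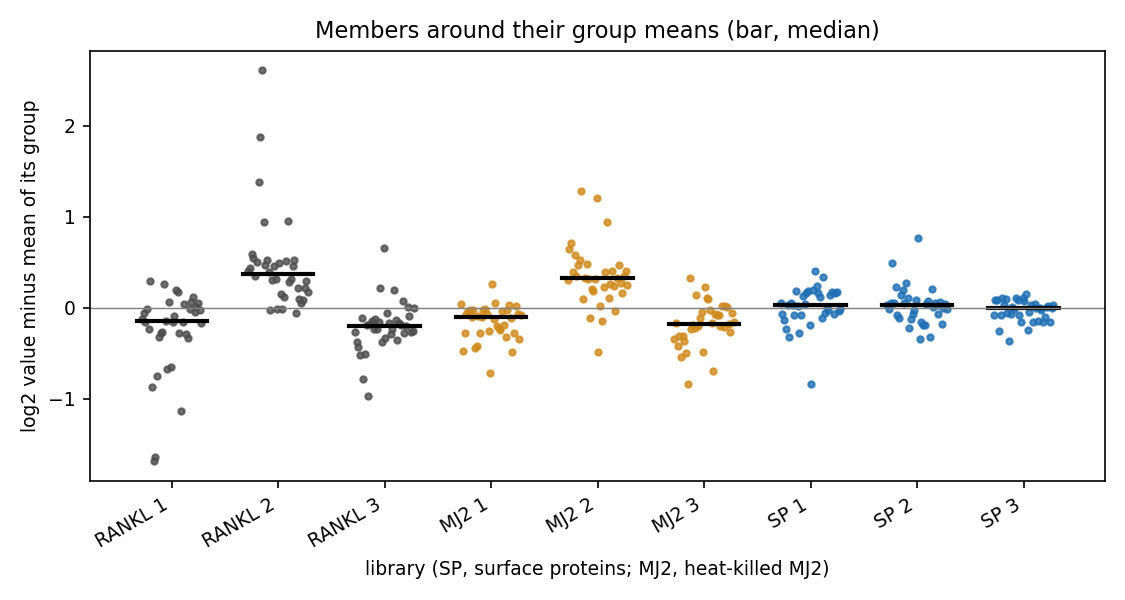
Log2 value of each of the 36 members tested (points) in each library, minus the mean of its group, with the median as a bar. The points of replicate 2 sit above 0 in RANKL alone (median 0.37) and with heat-killed MJ2 (median 0.32), and those of the surface protein libraries centre near 0.

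Genes around the set were read from lists of related roles, in which 9 genes stand in 2 lists and are counted in both, among them 6 tRNA synthetases that are also listed as ATF4 targets, Herpud1 and Slc7a11. Of all genes, 10.2% were higher and 7.32% lower with surface proteins, 3.37% and 0.897% with heat-killed MJ2, and 5.08% and 4.97% between the treatments, and each list's counts are to be read against these shares. Of 20 other ATF4 targets tested, 15 were higher with surface proteins and 0 lower, 4 were higher with heat-killed MJ2, and 9 were higher and 1 (Jdp2, -1.12) lower between the treatments. Atf3, Gadd45a and Gdf15 passed the filter on low values through the treated libraries, and without them 12 of 17 were higher with surface proteins and 3 with heat-killed MJ2. Gadd45a, a growth arrest gene, went from 2.72, 4.43 and 1.96 adjusted reads to 53.2, 103 and 15.7 with heat-killed MJ2 and 347, 510 and 362 with surface proteins. The fitted log2 fold change of 6.68 is a description, with 2 of the control libraries under the floor of 3 reads. Atf3, a stress and inflammation factor, gave 5.50, likewise a description, and was high in RANKL alone replicate 2, at 14, 146 and 5.91 adjusted reads in the 3 control libraries. Slc7a11, the cystine transporter, had log2 fold changes of 5.48 (SE 0.49) and, with heat-killed MJ2, 4.19 (SE 0.53). With heat-killed MJ2, Gadd45a gave 3.54, Pck2, the mitochondrial PEP carboxykinase, 2.34, and Nfil3, a leucine zipper repressor, 1.39.

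The chaperones and sensors of the endoplasmic reticulum, which serve the unfolded protein response, were higher in 15 of 19 with surface proteins, in 0 of 19 with heat-killed MJ2 by limma (1 at an adjusted and 13 at an unadjusted p under 0.05, 0 of these at a fold of 2, log2 fold changes from -1.13 to 0.72) and in 11 of 19 between the treatments. Sel1l, a part of the degradation machinery for misfolded proteins, had 813, 741 and 775 adjusted reads in RANKL alone, 1065, 1271 and 1172 with heat-killed MJ2 and 6212, 3703 and 4773 with surface proteins. By limma the last was at 2.62 (SE 0.21, adjusted p = 0.00089) on the log2 scale against RANKL alone, followed by Creld2 at 2.53 (SE 0.14) and Herpud1 at 2.20 (SE 0.36). Between the treatments they were at 2.04, 1.82 and, for Dnajc3, 1.67. The 14 genes of the eIF2 kinases, eIF2 and its exchange factor gave 0 calls in each comparison by limma, where 4 for surface proteins, 3 for heat-killed MJ2 and 6 between the treatments had an unadjusted p under 0.05 (3, 0 and 1 an adjusted one), all under a fold of 2, with log2 fold changes from -0.94 to 0.95 for surface proteins.

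Of 18 other cytosolic tRNA synthetases, 6 were higher with surface proteins, 0 with heat-killed MJ2 by limma (2 at an adjusted and 10 at an unadjusted p under 0.05, all under a fold of 2) and 1 (Mars) between the treatments. Mars, the methionine enzyme that shares its end with Ddit3, was at 2.77 (SE 0.19, adjusted p = 0.00048) by limma, Lars (leucine) at 1.42 (SE 0.17) and Eprs (glutamate and proline) at 1.34 (SE 0.13). The 10 mitochondrial chaperones and proteases held 0 calls by limma for heat-killed MJ2, also at an unadjusted p, and 1 gene passed elsewhere, Lonp1 at 1.27 (SE 0.14) with surface proteins and 1.00 against heat-killed MJ2, a share near that of all genes. Further amino acid transporters gave 4 higher and 1 lower of 12 with surface proteins, among them Slc38a7 at 1.98 (SE 0.26), Slc7a7 at 1.79 (SE 0.49), lost without RANKL alone replicate 1 or 3 or surface proteins replicate 2 or 3, and Slc43a2 at -1.15 (SE 0.13). The 1 lower is near the share of all genes. With heat-killed MJ2 they gave 2 higher and 1 lower (3.37% and 0.897% of all genes), Slc16a10 at 1.02 and Slc43a2 at -1.04 beside Slc7a11, and between the treatments 2 higher (5.08% of all genes).

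Folate, methionine and purine enzymes outside the set gave 3 higher and 4 lower of 21 for surface proteins, where 10.2% and 7.32% of all genes were, and a median log2 fold change of -0.62. Among the higher ones were Ggh, which trims stored folate, at 2.70 (SE 0.24) and Mthfd2l, a mitochondrial relative of Mthfd2, at 1.62 (SE 0.31). Lower were Gldc of the glycine cleavage system at -1.57 (SE 0.46), a call that held only without surface proteins replicate 3, the purine enzymes Pfas at -1.25 (SE 0.26) and Paics at -1.19 (SE 0.19), and Tyms, which makes thymidylate. Mthfd2l and Gldc each passed the filter through their higher group, and without these and Cbs 2 were higher and 3 lower of 18. Pfas was lost without RANKL alone replicate 1 or surface proteins replicate 2, and Tyms without replicate 1 of either. With heat-killed MJ2, 1 of 20 was higher (Ggh, 1.84) and 0 lower, and between the treatments 1 was higher and 2 lower (Pfas, -1.44, and Tyms, -1.16), where 3.37% of all genes were higher with heat-killed MJ2 and 5.08% higher and 4.97% lower between the treatments. The counts of 1 higher are near those shares.

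In the amino acid sensing pathway of GCN2 and mTORC1, 2 of 15 genes were higher and 2 lower with surface proteins (1 and 2 of 14 without Rragd), where 10.2% and 7.32% of all genes were. Impact, an inhibitor of GCN2, was at 1.52 (SE 0.20). Rragd, a GTPase that brings mTORC1 to the lysosome, had at most 1.04 adjusted reads in RANKL alone and with heat-killed MJ2, under the floor, and 10.8, 12.6 and 21.5 with surface proteins. Sesn1, a relative of Sesn2, went the opposite way from it, at 380, 221 and 320 adjusted reads in RANKL alone, 116, 139 and 103 with heat-killed MJ2 and 102, 32.6 and 21 with surface proteins, or -2.83 (SE 0.57, adjusted p = 0.0149) by limma, lost without surface proteins replicate 2. Deptor, an mTOR inhibitor, was at -1.62 (SE 0.23). With heat-killed MJ2 only Sesn1 passed, at -1.33, and between the treatments Impact and Rragd were higher. Rragd passed the filter on low values through the surface protein libraries. Of the calls named from these lists, those for heat-killed MJ2 other than that of Ggh were each lost without at least 1 library, and so were those of Lonp1, Pfas, Tyms and Impact between the treatments. Of 10 reference genes, 0 passed in each of the 3 comparisons by limma, while 6 for surface proteins, 4 for heat-killed MJ2 and 2 between the treatments had an unadjusted p under 0.05 (3, 0 and 0 an adjusted one), all under a fold of 2. Their log2 fold changes ran from -0.71 to 0.76, -0.32 to 0.92 and -0.47 to 0.33 in the same order. Medians were 0.09, 0.10 and 0.08. With heat-killed MJ2, 5 lay wholly above RANKL alone and 1 wholly below (15.4% and 14.7% of all genes). The 10 summed to 58282 to 66961 adjusted reads in RANKL alone, 71610 to 81183 with heat-killed MJ2 and 62594 to 69986 with surface proteins.

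**Figure D5:**
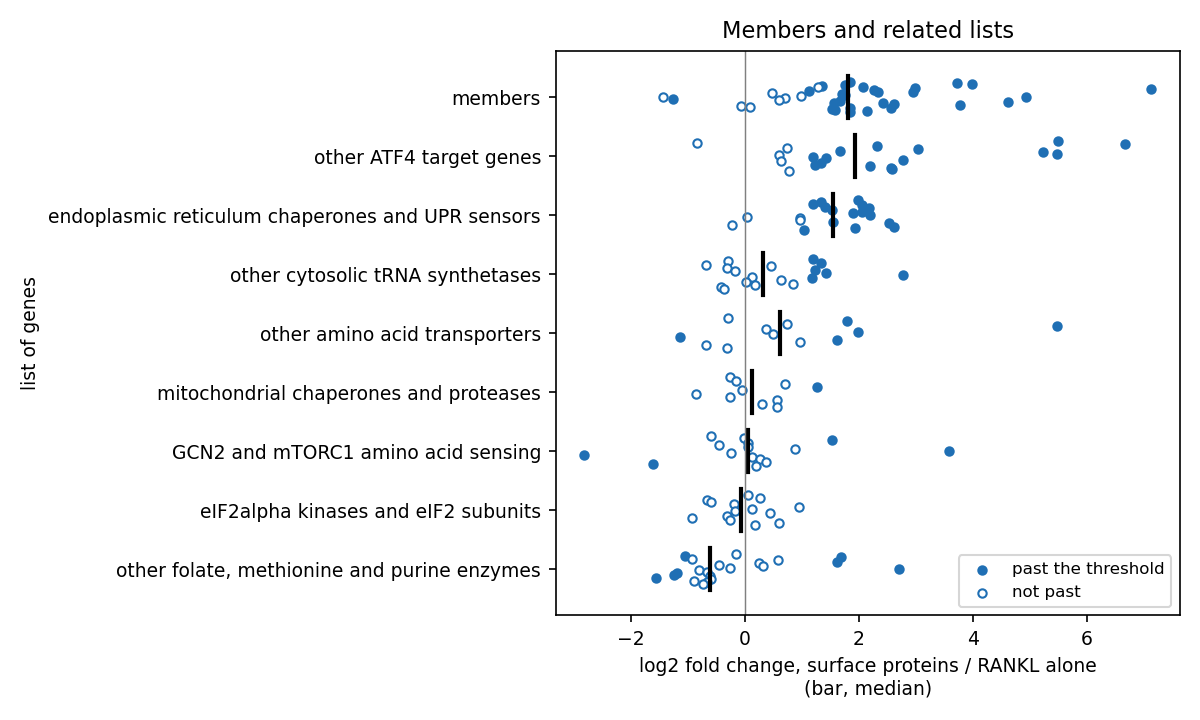
Log2 fold change of surface proteins against RANKL alone (horizontal axis) for each gene tested in the set of members and in 8 related lists (rows), with filled points past the threshold and the median as a bar. The members (median 1.81), the other ATF4 targets (1.93) and the endoplasmic reticulum chaperones (1.55) sit to the right of 0 (1.75, 1.42 and 1.73 without genes that passed the filter on low values through 1 group only), and the eIF2 genes (-0.06) and mitochondrial chaperones (0.12) sit near it.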

How the data were processed

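RNA libraries of 9 RAW264.7 samples, 3 for each of 3 groups, were read from their 3′ ends, and the groups follow the sample labels, the series description and the paper. The authors deposited 1 log2 value per gene row and library, with quantile normalization named in the methods. The sorted columns differ between libraries, so the exact scaling is not known, and no counts were used. The processing notes name Bowtie2, bedtools and mm10 without versions. Adjusted reads stepped in whole reads at low values in every library (within 0.25 of a step), 1 read being worth 0.929 to 1.1, and a floor of 3 reads covers counting error only. Exactly 15503 rows were above 0 in 1 library of each group (RANKL alone 2, heat-killed MJ2 1, surface proteins 3) against 12407 to 13207 in the others.

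The deposited log2 values of the 6 libraries of each comparison were fitted with limma 3.58.1 (lmFit, eBayes) in R 4.3.3, over all genes with at least 10 adjusted reads in 3 libraries, and tables were made with pandas 2.3.3. The code was tested on simulated data. Replicates differed by more than sampling (chi-square per degree of freedom 7.39 to 21.5). The members and gene lists were chosen with earlier results of these data known. Values per library are given for each member called in at least 1 comparison, and up to 3 genes per direction and comparison are named from each further list. A few items of the lists and windows are not reported here. Promoter windows are RefSeq's, and positions are those of GENCODE M21. Other scalings, filters, constants, priors, thresholds, a replicate block, and leaving out libraries were tried.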

Additional observations from a re-analysis of the deposited data

How the results depend on the processing

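Over 1934 values (the log2 fold change of each member under each alternative), 1751 kept direction and side of the threshold, 128 dropped below it, 37 rose above it and 18 changed sign. For surface proteins against RANKL alone, every alternative left between 26 and 30 members called (28 with all libraries), the range with 1 library left out being 26 to 30. For heat-killed MJ2 against RANKL alone, 8 members became 1 with no filter on low values, 5 with a constant of 0.1 before the log, 14 with a trend in the prior and 14 at an unadjusted p, 0 to 7 with 1 library left out, and 0 without replicate 2 of every group (14 unadjusted). Over all genes in that comparison, 461 calls became 267 with no filter, 799 at an unadjusted p, 81 to 347 with 1 library left out, and 59 without replicate 2. Between the treatments, 17 became 5 to 19 with 1 library left out. The cause was not tested, apart from the fewer libraries themselves.

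Signs changed for small values only. For surface proteins against RANKL alone, Slc38a2 ranged from -0.05 to 0.20 with 1 library left out. For heat-killed MJ2, 1 library left out gave ranges of -0.11 to 0.45 for Cebpg, -0.26 to 0.38 for Nupr1, -0.39 to 0.02 for Shmt1 and -0.15 to 0.04 for Mthfd1, and leaving out replicate 2 of both groups gave 0.26 for Shmt1 and 0.00 for Mthfd1. Between the treatments, Shmt2 went to -0.03 under quantile normalization, -0.06 at equal totals, -0.08 to 0.19 with 1 library left out and 0.20 without replicate 2 of both. Mthfd1l went to -0.03 at equal totals and -0.07 to 0.16 with 1 library left out.

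The replicate numbers are shared by the groups but the labels give them no meaning. Deviations of same-numbered libraries correlated at 0.018 to 0.106 over 11193 genes, above 0.1 only for replicate 2 of heat-killed MJ2 with RANKL alone. Each library still correlated best with its own number. With the replicate block, 28, 9 and 15 members were called for surface proteins, heat-killed MJ2 and between the treatments, and 289 of all genes for heat-killed MJ2.

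In RANKL alone, Rragd lay under the floor of 3 reads in every library, and Trib3 and Gadd45a in at least 1, and 3 libraries a group limit every p-value.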
